A study of Mus musculus with 12 samples.

Results

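The genes of MHC class I antigen presentation were followed in RNA-Seq data from mouse brain cortex. The 7 genes are H2-K1, H2-D1 and H2-T23 (heavy chains), B2m (light chain), Tap1 and Tap2 (peptide transporter) and Tapbp (tapasin), taken by symbol through their mouse Ensembl gene identifiers from a count table of 50563 genes. All 7 had counts in every mouse and passed the filter on low counts that left 15688 genes for testing. Both groups were E4FAD mice, which carry the human APOE4 gene in place of the mouse gene and a hemizygous set of familial Alzheimer's disease transgenes (genotype APOE4+/+, 5FAD-/+). The 7 CTRL mice received vehicle with antioxidants by oral gavage, and the 5 DPAn-6 mice received the omega-6 fatty acid docosapentaenoic acid in the same way every day. By the labels, CTRL held 2 mice aged 12 months and 5 aged 14 months, and DPAn-6 held 2 aged 12 months and 3 aged 14 months. The paper reports both sexes in each group. Every mouse carried the transgenes, so no level of these genes without amyloid was measured.

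Class I molecules show short peptides from inside the cell to CD8 T cells. Peptides cut by the proteasome are moved into the endoplasmic reticulum by the Tap1 and Tap2 transporter, tapasin holds the transporter beside an empty class I molecule, and a heavy chain folds with the light chain B2m around the peptide before it moves to the cell surface. Interferon is known to raise these genes. Promoters of the classical heavy chains hold elements that bind NF-kappaB and interferon regulatory factors and, further down, the factors that recruit Nlrc5. In the brain, microglia, endothelium and border macrophages are the main expressing cells, and class I is also known in neurons, where H2-K1 and H2-D1 have been tied to synapse removal.

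The promoters are shown because several of these genes are known to be driven by elements of the same kinds. RefSeq promoter windows of GRCm38.p6 were matched for 6 of the 7 genes, and none was matched for Tap2. Each window ran from 250 bases before to 50 bases after the RefSeq start. The upstream stretches of H2-K1 and B2m without an annotated exon base are printed first, and 29 bases around the motif of H2-D1 and H2-T23 follow. In the annotation that gave the gene positions, H2-D1 and H2-T23 begin further upstream than in RefSeq. Of the 180 bases before the RefSeq start, 180 for H2-D1 and 154 for H2-T23 were annotated exon. Both 29-base stretches thus lie in annotated exon of their gene. Capitals mark the motifs GGGATTCCC (the NF-kappaB letters of the class I enhancer), GAANNGAAA or GAAANNGAA (interferon-response letters) and CCAAT, on either strand. The coordinates are, in order, chr17:34000348-34000527 on the minus strand, chr2:122147507-122147685 on the plus strand, chr17:35262924-35262952 on the plus strand and chr17:36032806-36032834 on the minus strand.
H2-K1: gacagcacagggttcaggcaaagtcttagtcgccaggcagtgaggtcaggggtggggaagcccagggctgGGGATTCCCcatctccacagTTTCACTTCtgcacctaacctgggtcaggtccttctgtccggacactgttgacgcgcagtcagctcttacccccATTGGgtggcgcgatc
B2m: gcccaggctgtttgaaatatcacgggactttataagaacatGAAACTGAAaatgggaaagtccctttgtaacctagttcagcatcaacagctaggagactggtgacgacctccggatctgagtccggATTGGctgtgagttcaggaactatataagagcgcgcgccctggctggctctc
H2-D1: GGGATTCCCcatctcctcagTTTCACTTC
H2-T23: tcctactgctTTCTCTTTCataaagacac

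H2-K1 and H2-D1 share GGGATTCCC followed by TTTCACTTC, which reads GAANNGAAA on the other strand, and 28 of the 29 bases from one motif to the other are identical. Of all 32851 promoter windows, 0.353% hold GGGATTCCC and 7.52% hold GAANNGAAA. Both motifs were chosen after the sequences were seen. H2-T23 and B2m hold GAAANNGAA, which 8.56% of all windows hold, and neither holds the H2-K1 and H2-D1 pair. CCAAT was in the windows of all 6 genes and in 37.4% of all windows. TTCNNNGAA (8.3% of windows) and TGACGTCA (1.79%) were in none of the 6, and the interferon-response letters were in neither the Tap1 nor the Tapbp window. GAANNGAAA and GAAANNGAA can overlap, but no window of the 6 genes held both.

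Sequencing gave totals of 15339098 to 19500154 counts on genes in CTRL and 15208803 to 26520251 in DPAn-6. CTRL replicate 3 stood apart from the rest, since its genes under 1000 bases sat below its genes over 5000 bases by 0.48 on the log2 scale, against differences between -0.07 and 0.17 in the other mice. Xist, the RNA of the inactive X chromosome, was at 12171 and 13702 counts in the 12-month CTRL mice and at 42 and 83 in the 12-month DPAn-6 mice. Among 14-month mice, all 3 DPAn-6 mice were high in Xist, as were 2 of the 5 CTRL mice. The labels give no sex per mouse. The paper reports females and males in each group, in the same numbers as the mice high and low in Xist. By Xist, the 12-month CTRL mice were thus females and the 12-month DPAn-6 mice males. Within the 12-month mice treatment and Xist level cannot be told apart. In bulk tissue, fewer cells of a type and less RNA per cell cannot be told apart either.

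Levels were compared between genes as CPM (counts per 1000000 counts on genes) per kilobase of exon. B2m was the most abundant, at 209 ± 83.5 (SD, n = 12 mice), and Tap1 the least, at 1.21 ± 0.26. Between them were H2-D1 at 26.2 ± 4.42, H2-K1 at 15.6 ± 3.21, Tapbp at 10.99 ± 1.30, H2-T23 at 4.47 ± 0.80 and Tap2 at 3.75 ± 0.42. The ranges over mice of H2-D1 and H2-K1, of H2-K1 and Tapbp, and of H2-T23 and Tap2 overlapped, and the other neighbours in this order did not overlap. Within each of the 12 mice H2-K1 was below H2-D1 per length. The heavy chains are near-identical paralogs and differ between mouse strains, so reads may be split between them and their levels are uncertain to that extent.

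H2-K1 (ENSMUSG00000061232, chr17:33996017-34000347, minus strand) encodes the classical heavy chain K. In CTRL its level ran from 5.44 to 5.93 log2 CPM with a median of 5.62, and the DPAn-6 mice were at 5.54, 5.29, 4.84, 4.97 and 5.63. Each of the 5 DPAn-6 values lay under the CTRL mean, 3 of them lay outside the CTRL range, and the groups overlapped. The log2 fold change was -0.39 ± 0.13 (SE; 95% interval -0.67 to -0.11), or 0.761 of the CTRL level, with p = 0.00934 and adjusted p = 0.165 in edgeR's quasi-likelihood test (n = 12 mice). An exact permutation test (two-sided) of the difference in mean log2 CPM between 7 and 5 mice gave p = 0.0303, where 15.8% of all genes tested had a p below 0.05 and 0.00126 was the smallest p possible. That call was lost on leaving out any 1 of 5 mice, with p from 0.0606 to 0.0879 (CTRL replicates 1 and 7, DPAn-6 replicates 2, 3 and 4). H2-K1 did not pass the adjusted threshold in edgeR, and passed it in 1 of 26 alternatives, limma-voom with sample weights (log2 fold change -0.42, adjusted p = 0.0391), under which 8.08% of all genes were called.

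H2-D1 (ENSMUSG00000073411, chr17:35262730-35267499, plus strand) encodes the classical heavy chain D. Its CTRL levels ran from 5.73 to 6.45 log2 CPM with a median of 6.16, and the DPAn-6 mice were at 6.18, 6.01, 5.70, 5.71 and 6.19. The 14-month DPAn-6 mice sat inside the CTRL range and the 12-month mice just below its lowest mouse. The log2 fold change was -0.19 ± 0.12 (95% interval -0.45 to 0.06), with adjusted p = 0.502 in edgeR. For H2-D1 the log2 fold change was -0.13 without DPAn-6 replicate 3 and also without replicate 4, the 12-month mice of that group.

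H2-T23 (ENSMUSG00000067212, chr17:36029773-36032855, minus strand) encodes Qa-1b, a nonclassical heavy chain that presents leader peptides of other class I chains to the NKG2A receptor of NK and CD8 T cells. Levels in CTRL ran from 2.87 to 3.95 log2 CPM with a median of 3.62, and the DPAn-6 mice were at 4.05, 3.68, 3.78, 3.80 and 3.75. All 5 DPAn-6 mice were above the CTRL mean and 1 was above every CTRL mouse, so that H2-T23 was the only gene of the 7 whose fold change was above 0. The log2 fold change of 0.20 ± 0.14 (95% interval -0.10 to 0.49) did not pass the test, with adjusted p = 0.570 in edgeR. The lowest CTRL value belonged to CTRL replicate 3, and the H2-T23 log2 fold change fitted without it was 0.11.

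B2m (ENSMUSG00000060802, chr2:122147686-122153083, plus strand) encodes beta-2-microglobulin, the light chain that every class I heavy chain needs to reach the surface. Its CTRL levels ran from 7.10 to 8.62 log2 CPM with a median of 7.39, and the DPAn-6 mice were at 7.33, 7.24, 6.89, 7.11 and 7.43. Each DPAn-6 value lay under the CTRL mean, but 4 of the 5 lay within the CTRL range. The log2 fold change was -0.48 ± 0.23 (95% interval -0.96 to 0.01), with adjusted p = 0.354 in edgeR. CTRL replicate 3 gave the highest B2m level, 6032 counts against 2622 to 3579 in the other CTRL mice, although short transcripts as a class were low in that library and B2m, at 860 bases of exon, is short. Fitted without CTRL replicate 3, B2m had a log2 fold change of -0.21.

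Tap1 (ENSMUSG00000037321, chr17:34187553-34197225, plus strand) encodes the transporter subunit that pairs with Tap2. Levels in CTRL ran from 2.28 to 3.14 log2 CPM with a median of 2.82, and the DPAn-6 mice were at 3.04, 2.67, 2.09, 2.49 and 2.77. With 74 to 180 counts per mouse it was the least counted of the 7 genes, and its log2 fold change of -0.17 ± 0.17 had adjusted p = 0.725. Single mice moved that Tap1 value, which was -0.0507 when DPAn-6 replicate 3 was left out and -0.28 when DPAn-6 replicate 1 was, and leaving out CTRL replicate 2 or 7 gave -0.10 and -0.11. Tap1 exons overlap those of Psmb9, an immunoproteasome subunit on the opposite strand with 28 to 61 counts, and the strand setting of the counting is not given in the sources used here.

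Tap2 (ENSMUSG00000024339, chr17:34203527-34216321, plus strand) encodes the other transporter subunit. Its CTRL levels ran from 3.46 to 4.04 log2 CPM with a median of 3.93, and the DPAn-6 mice were at 3.83, 3.68, 3.68, 3.70 and 3.89. The log2 fold change was -0.14 ± 0.10, with adjusted p = 0.559. The lowest mouse was again CTRL replicate 3, and without it the difference of mean log2 CPM was -0.18 (two-sided exact permutation p = 0.0195) against -0.11 with all mice (exact p = 0.277).

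Tapbp (ENSMUSG00000024308, chr17:33915899-33929292, plus strand) encodes tapasin, which edits the peptides loaded onto class I. In CTRL it ran from 5.05 to 5.56 log2 CPM with a median of 5.32, and the DPAn-6 mice were at 5.36, 5.34, 4.96, 5.22 and 5.34. Only the DPAn-6 mouse at 4.96 left the CTRL range. Its log2 fold change was -0.14 ± 0.09, with adjusted p = 0.560, and it was -0.0674 without that mouse, DPAn-6 replicate 3. Tapbp shares exon sequence on the same strand with Zbtb22, a zinc finger gene with 473 to 1288 counts, so some of its reads may not have been counted.

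**Figure D1:**
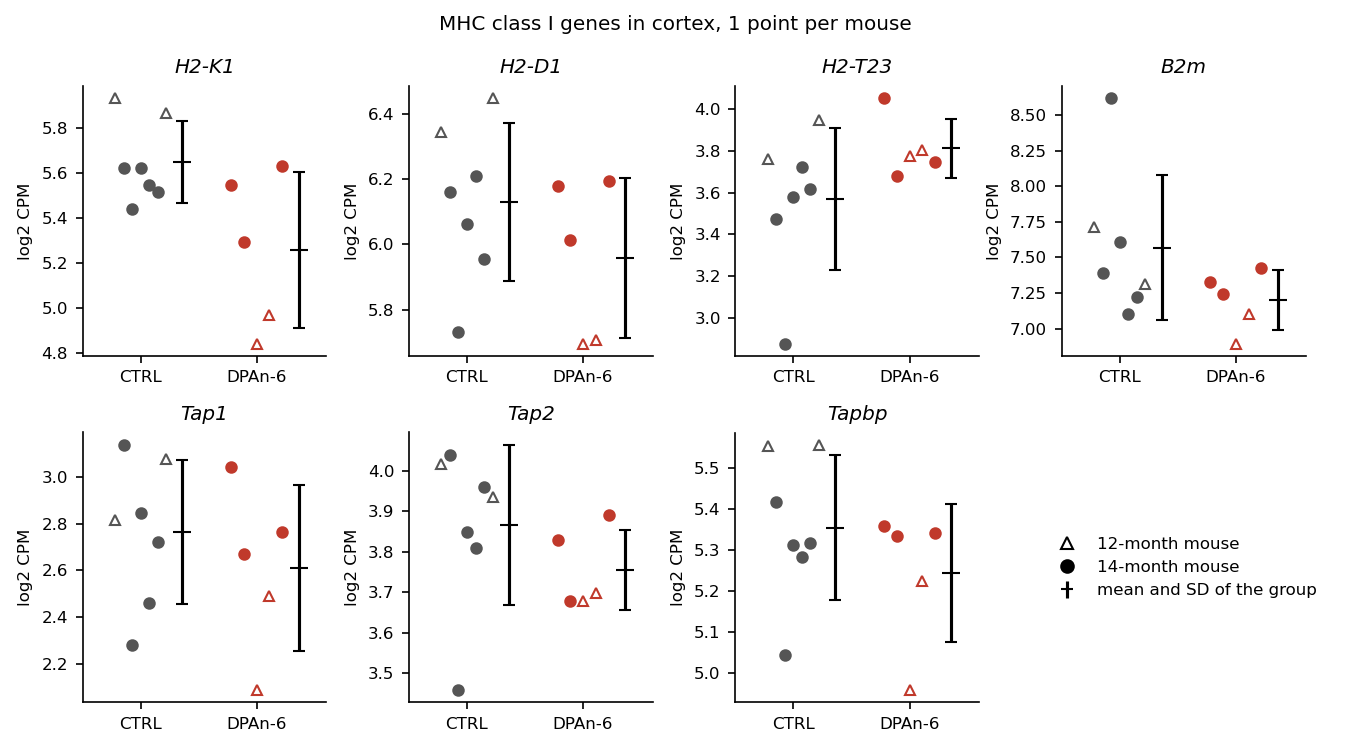
Level of each class I gene in each mouse (y axis, log2 CPM, not starting at 0) by group (x axis), with open triangles for 12-month and filled circles for 14-month mice and the mean with its SD at the right of each group. The groups overlap for all 7 genes, and for H2-K1 the 12-month CTRL mice are the highest and the 12-month DPAn-6 mice the lowest.

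Across the set, 0 of 7 genes passed an adjusted p of 0.05 in edgeR, where 1.55% of all genes tested were called. H2-K1 alone had an unadjusted p below 0.05 (1 of 7, against 14.5% of all genes). The fold change was below 0 for 6 of 7 genes, where 51.3% of all genes were below 0. The median log2 fold change was -0.17 for the 7 genes and -0.0047 for all genes tested. None of the 7 separated the groups without overlap, as 3.22% of all genes did. CTRL replicate 3 was the lowest CTRL mouse for 6 of the 7 genes and the highest for B2m.

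**Figure D2:**
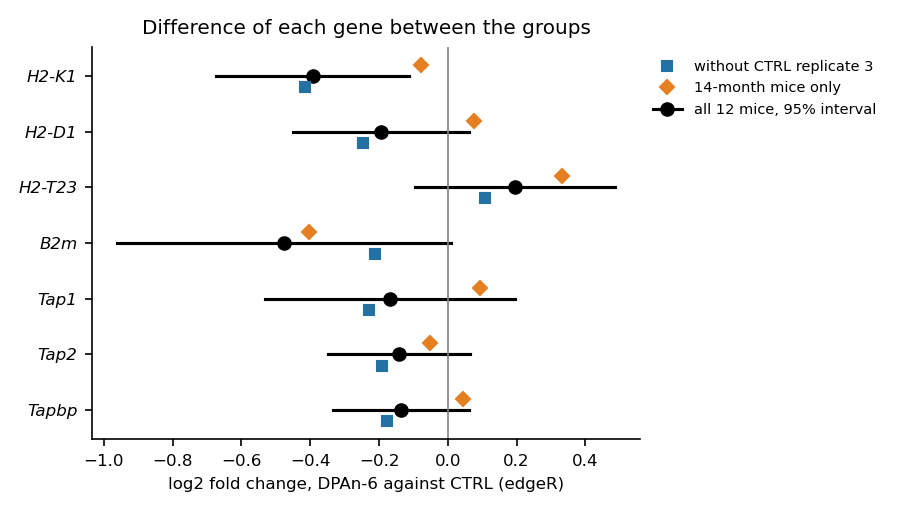
Log2 fold change of each gene, DPAn-6 against CTRL (x axis, edgeR), with all 12 mice and the 95% interval (black circles and lines), without CTRL replicate 3 (blue squares) and in 14-month mice only (orange diamonds). The interval for H2-K1 alone lies below 0 with all mice, and in 14-month mice H2-K1 is at -0.08 while H2-D1, Tap1 and Tapbp lie above 0.

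The difference between the groups was not alike at the 2 ages. At 12 months, H2-K1 was at 5.87 and 5.93 log2 CPM in CTRL and at 4.84 and 4.97 in DPAn-6, a difference of -0.99. At 14 months it ran from 5.44 to 5.62 in the 5 CTRL mice and stood at 5.54, 5.29 and 5.63 in DPAn-6, a difference of -0.06. The group difference in H2-K1 over all mice was thus carried by the 12-month mice, with the 14-month groups overlapping.

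H2-D1 followed the same course, with 12-month levels of 6.35 and 6.45 in CTRL and of 5.70 and 5.71 in DPAn-6, a difference of -0.70 log2 CPM. Its difference at 14 months was 0.11. For the peptide-loading genes the differences at 12 and 14 months were -0.66 and 0.14 for Tap1, -0.29 and -0.02 for Tap2 and -0.46 and 0.07 for Tapbp. B2m differed by -0.51 and -0.25, and H2-T23 by -0.06 and 0.37. At 12 months the DPAn-6 mice lay below the CTRL mice without overlap for 6 of 7 genes, all but H2-T23, where 24.3% of all genes did so. With 2 mice against 2, the exact permutation p cannot go below 0.333.

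The change of the group difference with age was tested as an interaction over all 12 mice. For H2-K1 the DPAn-6 minus CTRL difference was higher at 14 than at 12 months by 0.91 ± 0.16 (SE, n = 12 mice) on the log2 scale (edgeR p = 6.51e-05), and for H2-D1 by 0.77 ± 0.17 (p = 0.000632). The terms for Tapbp (0.50 ± 0.16, p = 0.00841) and Tap1 (0.75 ± 0.32, p = 0.0375) also had an unadjusted edgeR p below 0.05 (n = 12), and those for H2-T23 (0.39 ± 0.27), Tap2 (0.23 ± 0.21) and B2m (0.12 ± 0.49) did not. So 4 of 7 genes had such a p, all with a term above 0, where 4.26% of all genes had one and 2.47% had one with a term above 0.

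None of these terms passed adjustment over all genes, with adjusted p = 0.321 for H2-K1 and 0.551 for H2-D1 in edgeR. Of all genes tested, 1 passed it (0.00637%). Without CTRL replicate 3 the adjusted p was 0.0202 for H2-K1 and 0.0470 for H2-D1, so that 2 of 7 genes passed where 0.0832% of all genes did. The 12-month CTRL mice were high in Xist and the 12-month DPAn-6 mice low, so at that age the part of sex cannot be told apart from that of treatment. Xist was both high and low only among the 14-month CTRL mice, so as a covariate it cannot separate sex from treatment at 12 months. With log2 CPM of Xist as a covariate the H2-K1 term was 0.91 ± 0.23 (n = 12, edgeR p = 0.00163, adjusted p = 0.230). The genes with an unadjusted p below 0.05 were then H2-K1, H2-D1, Tapbp (0.57 ± 0.23) and H2-T23 (1.00 ± 0.33, p = 0.0104, n = 12), while Tap1 was no longer among them (0.66 ± 0.48, p = 0.188). The B2m term turned to -1.03 ± 0.51. CTRL replicate 3, a 14-month mouse high in Xist, had the highest B2m (8.62 log2 CPM) and the lowest H2-T23 (2.87) in CTRL. Among 14-month CTRL mice H2-K1 was at 5.44 and 5.62 in the 2 mice high in Xist and between 5.52 and 5.62 in the 3 low in it.

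Ratios within a mouse do not depend on the library total. Per length, the log2 ratio of H2-K1 over H2-D1 ran from -0.85 to -0.48 in CTRL with a median of -0.63, and was -0.82, -0.91, -1.04, -0.93 and -0.75 in the DPAn-6 mice. In each of the 5 DPAn-6 mice the ratio was under the CTRL mean, and in 3 it was under the whole CTRL range. The mean was -0.67 ± 0.12 (SD, n = 7) in CTRL and -0.89 ± 0.11 (n = 5) in DPAn-6, a difference of -0.22 with a two-sided exact permutation p = 0.0126 and p = 0.0379 adjusted over the 3 ratios. H2-K1 thus fell relative to H2-D1 by a factor of 0.858.

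Within ages the H2-K1 over H2-D1 ratio differed by -0.30 at 12 months and by -0.17 at 14 months, where the exact p of 0.161 over 5 and 3 mice did not pass. Tap1 over Tap2 differed by -0.04 between the groups (exact p = 0.774, adjusted 0.878). The summed H2-K1 and H2-D1 counts over B2m were -2.32 ± 0.64 in CTRL and -2.20 ± 0.11 in DPAn-6, a difference of 0.11 (exact p = 0.878). In CTRL replicate 3 this ratio was -3.69, far below the other 6 CTRL mice, and without that mouse the difference was -0.12.

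**Figure D3:**
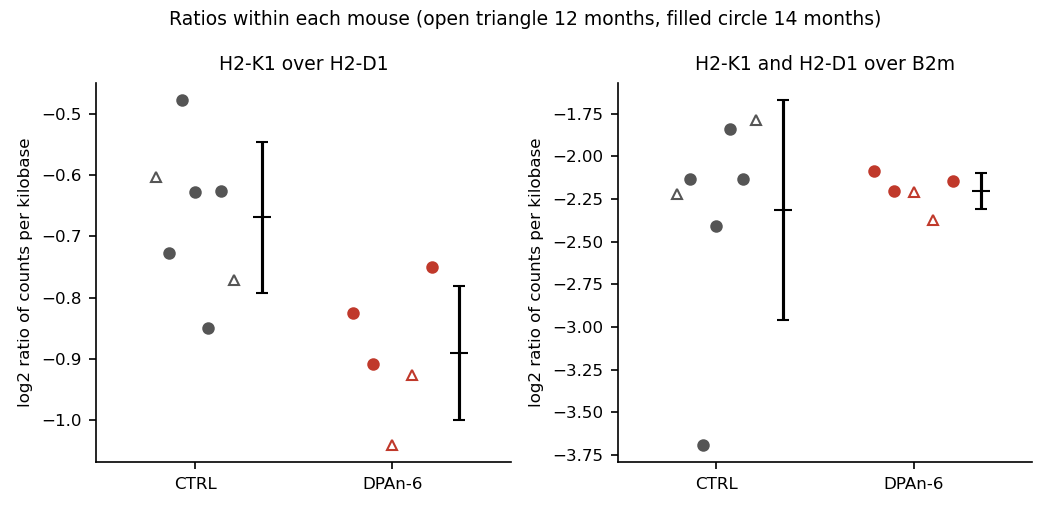
Log2 ratio of counts per kilobase (y axis) of H2-K1 over H2-D1 and of H2-K1 and H2-D1 together over B2m in each mouse by group (x axis), with open triangles for 12 months, filled circles for 14 months and the group mean with its SD. The H2-K1 over H2-D1 ratio is lower in DPAn-6, at -0.89 against -0.67, and in the B2m ratio CTRL replicate 3 stands alone at -3.69.

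The 7 genes were also compared for whether they varied together between mice, after each group was centred on its mean. H2-K1 and H2-D1 had Pearson's r of 0.89 over 12 mice (adjusted permutation p = 0.00245 over 21 pairs) and Spearman's rho of 0.89 (adjusted p = 0.0130), and r was 0.85 without the 2 mice farthest in H2-K1, which were the 12-month DPAn-6 mice. Tapbp followed H2-D1 (r = 0.88), Tap1 (0.86) and H2-K1 (0.83), all with an adjusted permutation p below the threshold. No pair with B2m passed the threshold, with r between -0.73 and 0.13 and rho between -0.25 and 0.46 against the other 6 genes. For Tap1, Tap2 and Tapbp the sign of r rested on few mice. Without the 2 mice farthest in B2m, CTRL replicate 3 and DPAn-6 replicate 3, r with B2m came to 0.44, 0.50 and 0.52. With the heavy chains, the 2 mice farthest in the heavy chain were left out instead. There r with B2m was -0.16 for H2-K1, -0.57 for H2-D1 and -0.14 for H2-T23.

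In all, 12 of 21 pairs passed by r, 8 by rho, and 5 by r without CTRL replicate 3. With each group centred within each age as well, 0 of 21 pairs passed (H2-K1 with H2-D1 r = 0.62, permutation p = 0.0239, adjusted p = 0.0859). Under that centring r was 0.83 for Tap1 with Tapbp, 0.79 for Tap2 with Tapbp, 0.71 for Tap1 with Tap2 and 0.81 for H2-D1 with H2-T23, against 0.86, 0.77, 0.73 and 0.71 with groups centred alone. Other pairs fell. With Tapbp, r went from 0.83 to 0.54 for H2-K1 and from 0.88 to 0.65 for H2-D1. With Tap1 it went from 0.75 to 0.56 for both H2-K1 and H2-D1. B2m was then at -0.76 with H2-D1 and -0.88 with H2-T23. The points share their library totals and transcript-length trend.

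**Figure D4:**
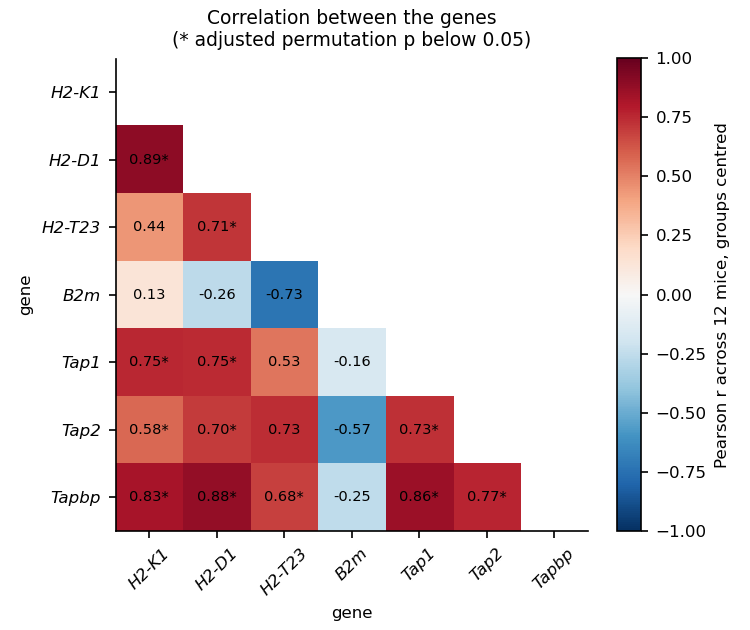
Pearson's r between each pair of class I genes (both axes) across 12 mice with each group centred on its mean, printed in each cell and coloured from -1 to 1, with an asterisk where the permutation p adjusted over 21 pairs was below 0.05. The heavy chains H2-K1 and H2-D1, Tap1, Tap2 and Tapbp form a block of positive values, and the B2m row and column hold values from -0.73 to 0.13, of which those with Tap1, Tap2 and Tapbp are 0.44 to 0.52 without CTRL replicate 3 and DPAn-6 replicate 3.

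Of the 15688 genes tested, those outside the 7 genes and the pathway lists below were ranked by resemblance to the 7. The measure was r between group-centred levels and the mean standardised level of the 7 genes, over 12 mice. The highest were Haus7 (r = 0.950), Dcps (0.945), Mavs (0.940), Man2b1 (0.939) and Arhgap45 (0.931). These values are descriptions of a ranking, and the pathway genes were not part of it.

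The other genes of the pathway were counted from lists written for class I biology. Of 26 other heavy chain genes, 12 were tested, 10 were below 0 and 2 above, and 0 passed an adjusted p of 0.05 in edgeR. The 2 with the smallest p were Hfe, an iron regulator with a class I fold (log2 fold change -0.40 ± 0.12, adjusted p = 0.111), and H2-T24 (-0.55 ± 0.22, adjusted p = 0.258). H2-M9, H2-M11, Gm7030, Gm11127 and Cd1d2 had no count in any mouse.

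Peptide loading and trimming genes were divided, with 5 of 11 below 0 and 6 above. Lnpep, the aminopeptidase that trims peptides in endosomes for cross-presentation, was at -0.45 ± 0.16 (adjusted p = 0.181), and Pdia3, the thiol oxidoreductase bound to tapasin, at 0.16 ± 0.09 (adjusted p = 0.439). Of 10 immunoproteasome and related genes, 3 were below 0 and 7 above. Pomp, a proteasome assembly factor, was at 0.14 ± 0.07 and Psmb7, a subunit of the standard proteasome, at 0.14 ± 0.08. Neither had an unadjusted p below 0.05. The catalytic subunits of the immunoproteasome itself were at -0.28 ± 0.21 (Psmb8), -0.24 ± 0.20 (Psmb9) and 0.01 ± 0.17 (Psmb10). None of the genes on these lists passed the adjusted threshold in edgeR.

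Among 19 transcriptional regulators, 15 were below 0 and 4 above. Rfx5, part of the complex that binds MHC promoters, was at -0.30 ± 0.09 (adjusted p = 0.0954 in edgeR), and Irf8, an interferon regulatory factor that microglia need, at -0.39 ± 0.13 (adjusted p = 0.166). Of 10 interferon receptors and kinases, 6 were below 0, with Ifnar2 at -0.27 ± 0.11 and Ifngr1 at -0.13 ± 0.09. Of 10 genes listed as receptors for class I, 2 were countable enough to test, Pilra at -0.56 ± 0.32 and Lilrb4a at -0.09 ± 0.28. Neither is an established class I receptor. Pirb, which is one, had 3 to 14 counts and was not tested. Over these 6 lists, 0 of 64 genes passed an adjusted p of 0.05 and 7 had an unadjusted p below it, all below 0, against 9.02% of all genes. Without CTRL replicate 3, 4 of them passed in edgeR, where 6.1% of all genes did: Hfe (-0.45, adjusted p = 0.0204) and Rfx5 (-0.27, 0.0416) fell, and Pdia3 (0.23, 0.0292) and Calr, the chaperone of the loading complex (0.22, 0.0332), rose.

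Several pathway genes shared the age pattern of H2-K1, and the following were chosen after their values were seen. H2-Q7, a Qa-2 heavy chain, differed between DPAn-6 and CTRL by -1.98 log2 CPM at 12 months and by 0.28 at 14 months (interaction 2.26 ± 0.44, edgeR adjusted p = 0.321). Psmb8, the immunoproteasome subunit beside the Tap genes, differed by -1.16 and 0.20 (interaction 1.33 ± 0.29, adjusted p = 0.516). Nlrc5, the transactivator of class I genes, differed by -1.02 and 0.04 (interaction 0.94 ± 0.41, adjusted p = 0.905). Of 64 pathway genes the interaction was above 0 for 41, against 49.3% of all genes, with an unadjusted p below 0.05 for 8 above and 2 below 0, and none passed the adjustment. H2-Q7 had 11 to 47 counts per mouse and close paralogs in H2-Q6 and the other Q genes, so its value is uncertain.

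Markers of microglia and border macrophages, which are known to carry class I, had fold changes below 0 in DPAn-6. Of 12 microglial markers tested, 12 were below 0 and 2 fell with an adjusted p below 0.05 in edgeR, as 1.14% of all genes did (Csf1r by 0.50 and Tmem119 by 0.77 on the log2 scale). The summed microglial level was 831 to 1177 CPM in CTRL and 632 to 836 in DPAn-6. At 12 months it was 934 and 1177 against 632 and 739, and at 14 months 831 to 1056 against 739 to 836. Markers of disease-associated microglia, the state seen around amyloid plaques, were below 0 for 11 of 12 genes, and 4 of them fell with an adjusted p below 0.05 in edgeR: Spp1 (log2 fold change -2.16), Itgax (-1.05), Cst7 (-1.01) and Axl (-0.41). Their sum was 1974 and 2513 CPM in 12-month CTRL mice against 1423 and 1506 in 12-month DPAn-6 mice, and 1718 to 2238 against 1790 to 1822 at 14 months. Most of that sum came from the lysosomal enzymes Ctsb and Ctsd, which are not confined to microglia. Their mean levels in CTRL were 9.68 and 9.18 log2 CPM, and their log2 fold changes -0.03 and -0.43. The age interaction of the disease-associated microglia markers was above 0 for 11 of 12 genes, 5 of them with an unadjusted p below 0.05. Of all genes tested, 49.3% had a term above 0, and 2.47% had one with such a p. The pattern was not particular to these markers. The term was above 0 for 6 of 6 oligodendrocyte markers, 3 with such a p, and 8 of 12 microglial markers, 2 with such a p. It was above 0 for 7 of 8 leptomeningeal fibroblast, 5 of 5 blood and 4 of 6 astrocyte markers. For border macrophages it was 2 of 4, for endothelium 5 of 12, for neurons 1 of 8 and for choroid plexus 0 of 4. The part of the microglial level in the class I values was not tested.

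Border macrophage markers had 4 of 6 genes tested, all 4 below 0 and 3 of them past the adjusted threshold. Of all genes tested, 51.3% were below 0 and 1.14% fell past that threshold. The border macrophage sums were 10.9 to 16.5 CPM in CTRL and 4.68 to 6.44 in DPAn-6. Endothelial markers were 8 below 0 and 4 above, with 0 of 12 past the adjusted threshold and sums of 516 to 594 against 494 to 538 CPM. T and NK cells, which bear the receptors for class I, were hardly seen: without Thy1, which neurons express, their 12 markers summed to 28 to 61 counts per mouse, and Cd8a had at most 5 counts in any mouse. Neuronal markers, which define the cortex, were abundant in all mice, at 6022 to 8581 CPM in CTRL and 6966 to 7747 in DPAn-6, with 0 of 8 passing the adjusted test. Fibroblast markers of the leptomeninges were below 0 for 8 of 8 genes, 3 of them past the adjusted threshold, with sums of 190 to 308 CPM in CTRL and 137 to 207 in DPAn-6. That sum is not of fibroblasts alone, since it holds Pdgfra, which oligodendrocyte precursors also express. Mean Pdgfra was 6.38 log2 CPM in CTRL and 6.18 in DPAn-6. Choroid plexus markers summed to 13.2 to 1688 CPM in CTRL and 7.62 to 24.1 in DPAn-6, and with the choroid plexus gene Ttr as a covariate H2-K1 was at -0.45 with adjusted p = 0.632 in edgeR. Blood, astrocyte and oligodendrocyte markers had 0 genes past the adjusted threshold. The part of these cells in the class I values was not tested.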

How the data were processed

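Cortex RNA was poly(A)-selected and sequenced, with 1 library per mouse, and the replicate is the mouse. The authors aligned reads with STAR (2.5.3a in the submitters' processing notes) to GRCm38 and deposited raw counts per gene, not normalized. Counts were used as deposited. Symbols, positions and exon lengths came from GENCODE M21 of GRCm38, in which 50339 of 50563 identifiers matched, and 30214 genes had a count.

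Genes were tested with edgeR 4.0.16 (R 4.3.3; TMM, filterByExpr by group, glmQLFit and glmQLFTest, no covariate), and p-values were adjusted over all 15688 genes tested by the Benjamini-Hochberg method. Log2 CPM values carry a pseudocount of 0.5. The exact permutation tests took every split of the mice, and correlations 100000 resamples within groups. All 7 genes were named whatever their values, and from each pathway list the genes past the adjusted threshold or, with none, the 2 with the smallest p. Pirb, Psmb8, Psmb9 and Psmb10 were named for their roles, after their values were seen. The genes and lists were chosen with earlier results of these data known. Alternatives were DESeq2 1.42.0, limma 3.58.1 (voom, with or without sample weights), other scalings, filters and pseudocounts, age, Xist or Ttr as covariates, 14-month mice only, a replicate block and each mouse left out.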

Additional observations from a re-analysis of the deposited data

Results flagged for a closer look

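CTRL replicate 3 lay far from the other CTRL mice in 3 of the 20 sets of values examined for a far sample, where chance marks about 1 in 20. It was the highest CTRL mouse in B2m, at 8.62 log2 CPM, and the lowest in Tap2, at 3.46, and its ratio of H2-K1 and H2-D1 over B2m was the lowest, at -3.69.

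The difference between DPAn-6 and CTRL itself differed between 12 and 14 months in 4 genes by an unadjusted edgeR interaction test. The terms were 0.91 for H2-K1, 0.77 for H2-D1, 0.75 for Tap1 and 0.50 for Tapbp, each on the log2 scale as the 14-month minus the 12-month difference. None passed the adjustment over all genes, and each rests on 2 mice per group at 12 months, which also differed in Xist.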

How the results depend on the processing

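Of the 7 genes, H2-K1, H2-T23, B2m and Tap2 kept the sign of their log2 fold change under all 26 alternatives. In 14-month mice only, the sign turned for H2-D1 (0.0774), Tap1 (0.0947) and Tapbp (0.0446), and the Tap1 over Tap2 ratio (0.16) turned as well, while H2-K1 over H2-D1 (-0.17) no longer passed. Limma-voom with sample weights called 1 of 7 genes, H2-K1 (-0.42), and none of the other 25 alternatives called any.

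Leaving out each mouse, the difference of log2 CPM ran from -0.49 to -0.29 for H2-K1, from -0.24 to -0.11 for H2-D1, from -0.26 to -0.0218 for Tap1 and from -0.16 to -0.0401 for Tapbp (each nearest to 0 without DPAn-6 replicate 3), from -0.44 to -0.19 for B2m, from 0.13 to 0.31 for H2-T23 (passing without CTRL replicate 7, exact permutation p = 0.0368) and from -0.18 to -0.0827 for Tap2. The Tap1 over Tap2 ratio ran from -0.13 to 0.0702, above 0 without DPAn-6 replicate 3, and H2-K1 and H2-D1 over B2m from -0.12 to 0.20. Interactions ran from 0.85 to 1.01 for H2-K1, 0.71 to 0.83 for H2-D1 and -0.10 to 0.50 for B2m. Correlated pairs numbered 5 to 14, pathway calls 0 to 4. The interaction of B2m was -1.03 with Xist as a covariate, and 0 pairs passed with groups and ages centred. Unadjusted pathway counts were 3 in 14-month mice, 15 when CTRL replicate 3 was left out and 4 when DPAn-6 replicate 2 or 3 was, against 7. With all mice, 14.5% of all genes had an unadjusted edgeR p below 0.05. That share was not computed in the other settings, so these counts cannot be read as a result about the pathway. Genes past the adjusted threshold rose from 1.55% to 6.1% of all genes without CTRL replicate 3.

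With the replicate number as a block, the log2 fold change of H2-K1 was -0.40 (edgeR adjusted p = 0.222) and 0 genes were called. Same-numbered mice had correlations of deviations from -0.12 to 0.22, and 0 of 5 DPAn-6 mice resembled its own number best. With 5 pairs, these values cannot decide whether mice of the same number were paired, since a weak pairing could give them too. Removing the length trend, the covariate for Xist added to the interaction, leave-one-out interactions, the centring by age and rho were chosen after seeing the data. Tap1, at 74 to 180 counts, is limited by depth.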
